A study of Mus musculus with 48 samples.

Results

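Adult soleus and adult gastrocnemius are the slow-biased and the fast-biased muscle that this study took from the shank, the part of the leg below the knee. The comparison used 12 of the 48 libraries, chosen by the stage and muscle that head each column of the count table: 6 libraries of adult soleus and 6 of adult gastrocnemius. Both muscles came from the same 6 mice, and a soleus library was paired with the gastrocnemius library that carries the same collection date tag. The pairs are lettered A to F here, and each is called a collection. The labels call all mice untreated FVB/NJ males, an inbred laboratory strain, and name no transgene or other engineered allele. The labels give 3 to 4 months as the age at which adult mice were obtained, while the text of the series calls the stage P56, so the mice are called adult. The other 36 libraries are adult vastus intermedius and vastus lateralis of the thigh, and the same 4 muscles of E18.5 embryos. The labels read here do not say which head of gastrocnemius was dissected.

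Skeletal muscle fibres are long cells that differ in the isoforms of the contractile proteins they make. Slow, or type I, fibres use the myosin heavy chain of Myh7, resist fatigue and burn fat and sugar in mitochondria. Fast fibres use Myh2 (type IIa), Myh1 (type IIx) or Myh4 (type IIb), in order of rising shortening speed, and type IIb fibres depend mostly on glycolysis. In mice, soleus is a postural muscle of slow and IIa fibres, and gastrocnemius is a large propulsive muscle made up mostly of IIb fibres with a deep region that holds some slow ones.

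Messenger RNA was counted per gene, with totals of 19.2 to 28.8 M reads in the 12 libraries. Values are CPM, read counts relative to library size, scaled by the TMM method of edgeR, and are given as the lowest, the median and the highest of the 6 libraries of a muscle. The 5 muscle fibre markers Ckm, Acta1, Ttn, Neb and Des were abundant in every library, between 2608 and 51599 CPM. The first principal component of the log values took 77.1% of the variance and parted the muscles. The second took 6.33%, and soleus of collection A stood farthest out on it. One library outside these 12, labelled adult vastus intermedius of collection B, went against its label: embryonic Myh3 had 11381 CPM in it, 4.97 to 18.9 CPM in the other 5 adult libraries of that muscle and 10968 to 16963 CPM in the 6 at E18.5. In bulk tissue, fewer cells of a type and less RNA per cell cannot be told apart, which holds for every result here.

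The slow-to-fast difference reached most expressed genes. Of 13585 genes tested with edgeR's quasi-likelihood test on collection-paired libraries (adjusted p under 0.05 after Benjamini-Hochberg correction), 7918 passed, which is 58.3%. Of all genes tested, 30.9% (4200) were higher in soleus and 27.4% (3718) were lower. Differences of more than 2-fold were found for 2357 genes, 1488 higher and 869 lower. More than 16-fold differences were found for 48 higher and 64 lower genes. The direction was the same in 6 of 6 collections for 6890 of the called genes. The soleus and gastrocnemius libraries did not overlap for 4672 genes (34.4%), with soleus above for 2230 and below for 2442. The median log2 fold change over all genes was 0.06. The 20 most abundant genes took 25% to 29% of the counts in soleus and 34% to 40% in gastrocnemius, and with scaling by library totals alone the median moved to 0.44 and the split to 7590 higher and 1587 lower. No called gene named here reversed under RLE, upper-quartile or library-total scaling.

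The myosin heavy chain genes changed places almost completely. Soleus put most of its myosin reads into Myh7 and Myh2, and gastrocnemius put nearly all of its own into Myh4. As shares of the summed counts of Myh7, Myh2, Myh1, Myh4, Myh3 and Myh8, Myh7 held 50%, 55.9%, 68.4%, 60.5%, 59.2% and 54.9% in soleus of collections A to F. In gastrocnemius it held 0.0192%, 0.652%, 0.766%, 0.0138%, 1.47% and 0.639%. The shares did not overlap, and gastrocnemius of A and D held far less than the other 4.

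Myh2, the IIa gene, held a share of 32.7% ± 6.87 in soleus and 3.33% ± 2.47 in gastrocnemius (SD, n = 6 each). Myh4, the IIb gene, held 0.266% ± 0.064 in soleus and 91.9% ± 6.01 in gastrocnemius. Each of these 3 shares, and those of Myh3 and Myh8, moved the same way in 6 of 6 animals (exact two-sided sign-flip test over 6 animals, p = 0.03125, which is the smallest it can give, adjusted p = 0.0375 over 6 genes). The IIx gene Myh1 stood apart from this, with 8.81% ± 3.46 in soleus and 4.17% ± 3.17 in gastrocnemius. Its shares overlapped and 5 of 6 animals had a larger share in soleus (exact p = 0.15625, adjusted p = 0.156). Myosin counts were higher in total in gastrocnemius, where Myh4 alone averaged 86114 CPM. A gene of equal level in both muscles therefore has a larger share in soleus. Soleus of collection C had the highest share of Myh7 and the lowest of Myh2, 20.5%, and soleus of collection E had the lowest of Myh1, 2.5%.

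**Figure D1:**
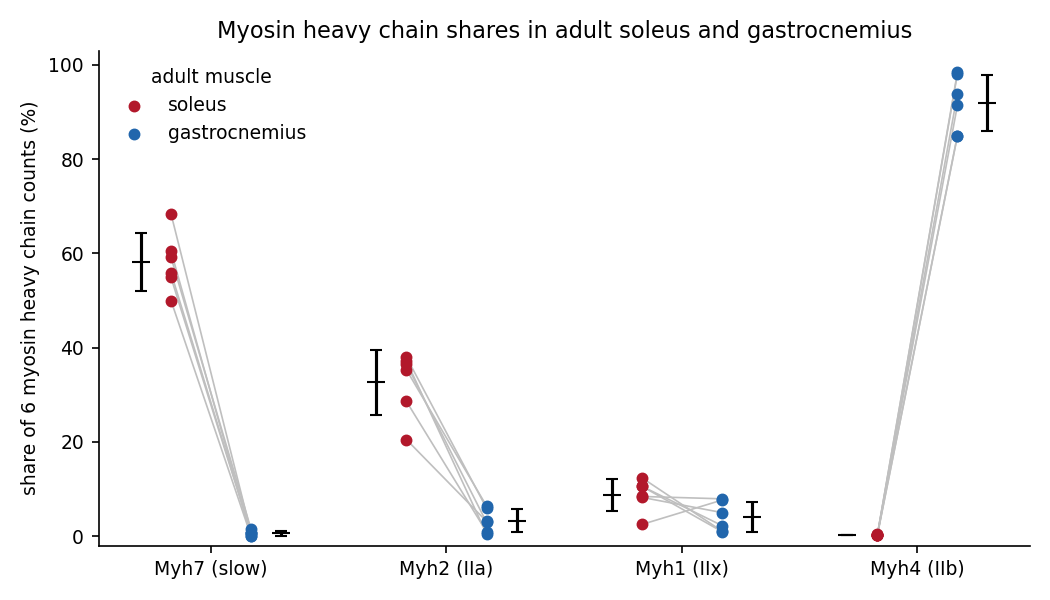
Share of each of 4 myosin heavy chain genes in the summed counts of 6, in percent, with 1 point per library, grey lines joining the muscles of an animal, and black marks for the mean and SD (n = 6). Myh7 lies between 50% and 68.4% in soleus and at most 1.47% in gastrocnemius, Myh4 at most 0.38% in soleus and at least 84.9% in gastrocnemius, and the Myh1 shares overlap.

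By level rather than share, Myh4 had 56.8, 68.6 and 121 CPM in soleus (lowest, median and highest), against 63985, 84823 and 109710 CPM in gastrocnemius. The log2 fold change was -10.17 ± 0.29 (SE, n = 6 pairs, adjusted p = 4.41e-09). Myh7 had 11469, 16397 and 21827 CPM in soleus and 11.5, 580.7 and 1105 CPM in gastrocnemius, a log2 fold change of 5.89 ± 0.95 (adjusted p = 0.000411). Myh2 rose by 2.02 ± 0.42 in soleus. Myh1 had 700, 2646 and 3372 CPM in soleus and 819.6, 3661 and 6634 CPM in gastrocnemius and did not pass (-0.29 ± 0.59, adjusted p = 0.689), but was lower in soleus with collections B, C, E and F only, a choice made after seeing the data (-1.26, adjusted p = 0.0301). Close paralogs such as these can share reads, which makes their counts less certain.

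The fast and developmental genes sit side by side in 1 cluster on chromosome 11 (RefSeq coordinates, build GRCm38.p6): Myh3 at chr11:67078273-67102291, Myh2 at chr11:67171027-67197517, Myh1 at chr11:67200102-67224577, Myh4 at chr11:67237812-67260447 and Myh8 at chr11:67277124-67308634. Within that stretch soleus was higher for Myh2 and for Myh3, the embryonic myosin, and lower for Myh4. Myh3 had 7.45, 11.7 and 31.6 CPM in soleus, against 0.599, 1.91 and 4.78 CPM in gastrocnemius (log2 fold change 2.93 ± 0.35). Myh8, the perinatal myosin, had a median of 8.43 CPM in soleus and 6.55 CPM in gastrocnemius and did not pass (adjusted p = 0.191, passing with library totals alone), although its share of myosin counts was higher in soleus in 6 of 6 animals. Myh7 lies on chromosome 14 at chr14:54970684-54994626, next to Myh6, the alpha cardiac myosin, at chr14:54941921-54968017. Myh6 had 887.9, 1476 and 2361 CPM in soleus and 2.02, 76.8 and 141 CPM in gastrocnemius (log2 fold change 5.35 ± 0.83).

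Mhrt, a noncoding RNA known from the mouse heart, lies between these genes at chr14:54968787-54974349 and overlaps the end of Myh7 on the other strand. It had 3.47, 4.4 and 11.5 CPM in soleus and 0, 0.0979 and 0.33 CPM in gastrocnemius. The sources do not say if counting used strand, and without it Mhrt and Myh7 reads cannot be told apart. Another slow myosin gene, Myh7b, lies on chromosome 2 at chr2:155611243-155634307 and had 164.9, 278.9 and 412.8 CPM in soleus, against 0.599, 10.1 and 22.9 CPM in gastrocnemius.

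Myh7 and Myh7b each host a microRNA in an intron, and together with miR-133b, another muscle microRNA, these are shown because their host or hairpin genes followed the slow muscle. The mature sequences (RefSeq, GRCm38.p6, 5′ to 3′) are given with the seed, bases 2 to 8, in capitals.
mmu-miR-208b-3p: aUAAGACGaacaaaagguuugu
mmu-miR-499-5p: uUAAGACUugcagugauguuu
mmu-miR-133b-3p: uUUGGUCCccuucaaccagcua
The seeds of miR-208b and miR-499, UAAGACG and UAAGACU, differ at the last base alone. Their loci are chr14:54975710-54975731 and chr2:155622893-155622913, and that of miR-133b is chr1:20682834-20682855. The hairpin gene Mir208b had 10, 7, 67, 10, 19 and 30 reads in soleus of collections A to F and 0, 0, 1, 0, 2 and 1 reads in gastrocnemius. Mir499 had at most 2 reads in any library. Mir133b had 428, 89, 232, 116, 193 and 684 reads in soleus and 7, 16, 9, 0, 6 and 72 in gastrocnemius, a log2 fold change of 3.93 ± 0.41 (adjusted p = 2.3e-05). These 3 genes were chosen after their values were seen. Libraries made from messenger RNA count host or precursor transcripts there and do not measure the mature microRNA.

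The rest of the contractile apparatus followed the myosins. Of 21 genes listed for the slow sarcomere, 20 were higher in soleus, none was lower, and the same 20 had groups that did not overlap. Their median log2 fold change was 4.91, against 0.06 over all genes. The exception was Smpx, a small muscle protein of the costamere, with 0.20 ± 0.09 (adjusted p = 0.0814, and 0.0325 without collection B); it passed with upper-quartile scaling and library totals. Of 19 genes of the fast sarcomere, 16 were lower in soleus, 1 (Myh2) was higher, and Myh1 and Myh13 did not pass. The median of that list was -2.92. Summed over each list, slow sarcomere genes took 54463 to 84158 CPM in soleus and 1889 to 9315 CPM in gastrocnemius. Fast sarcomere genes took 24357 to 32879 CPM in soleus and 195092 to 278524 CPM in gastrocnemius.

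Troponin, the calcium switch on the thin filament, showed the pattern in all 3 subunits. Tnnc1, the slow and cardiac calcium-binding subunit, had 1624, 2078 and 2716 CPM in soleus and 1.85, 102 and 186 CPM in gastrocnemius (log2 fold change 5.45). Tnni1, the slow inhibitory subunit, had 926.8, 1351 and 1940 CPM in soleus and 1.2, 74.4 and 129.2 CPM in gastrocnemius (5.27). The slow tropomyosin-binding subunit gene Tnnt1 rose by 5.21 in soleus. Their fast partners fell by 2.34 (Tnnc2), 2.36 (Tnni2) and 2.62 (Tnnt3) on the log2 scale. So the fast troponins kept a sizeable level in soleus, with medians of 1670 CPM for Tnnc2, 1356 CPM for Tnni2 and 3350 CPM for Tnnt3.

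Slow and fast partners were also set against each other within each library, which needs no scaling between libraries. In all 14 isoform pairs examined the slow member took a larger share of the pair's counts in soleus, in 6 of 6 animals, with no overlap (exact two-sided sign-flip test, p = 0.03125, the smallest it can give, adjusted p = 0.0312 over 14 pairs). The pairs differed in how fully soleus had exchanged them. Actn2 held 99.7% ± 0.322 of Actn2 and Actn3 in soleus and 10.8% ± 6.74 in gastrocnemius, and Mybpc1 held 99.0% ± 0.66 of Mybpc1 and Mybpc2 in soleus and 18.6% ± 9.12 in gastrocnemius. Tnni1 held 51.0% ± 8.50 of Tnni1 and Tnni2 in soleus, against 0.944% ± 0.797 in gastrocnemius (SD, n = 6 each). With counts taken per base of gene length its share in soleus was 38.7%, which puts the fast form ahead. The calcium-storing calsequestrins kept the fast form ahead in both muscles, and the slow and cardiac Casq2 held 39.8% ± 3.43 in soleus and 0.757% ± 0.489 in gastrocnemius.

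The essential light chains varied widely among gastrocnemius libraries. Myl3 held 97.6% ± 1.06 of Myl3 and Myl1 in soleus and 26.7% ± 20.4 in gastrocnemius. Myl1 itself spread widely, and its highest library exceeded its lowest by 8.48-fold in soleus and 24.7-fold in gastrocnemius, while those ratios were 1.45 and 1.5 for Mylpf, an abundant fast light chain. The SD of this share in gastrocnemius was the largest of the 14.

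**Figure D2:**
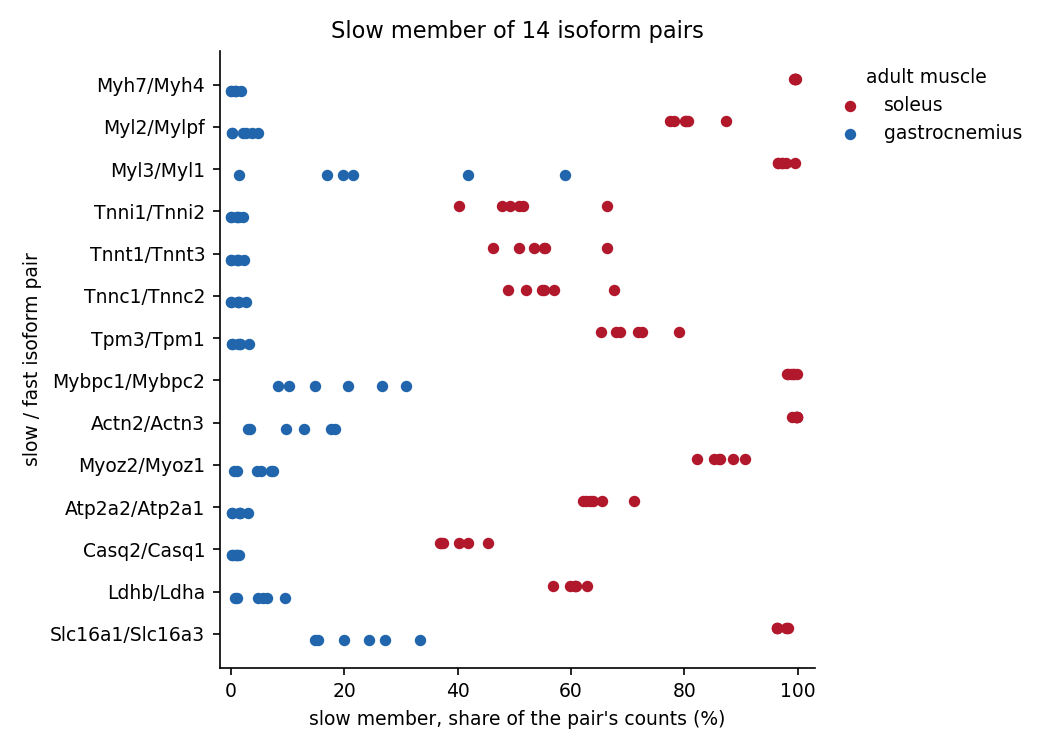
Share of the slow member in the summed counts of each of 14 slow and fast isoform pairs, in percent, with 1 point per library, soleus in the upper row and gastrocnemius in the lower row of each pair. No pair overlaps between the muscles, and Casq2 and Tnni1 stay at means of 39.8% and 51.0% in soleus while Actn2 and Mybpc1 reach 99.7% and 99.0%.

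The gastrocnemius libraries of A and D were poorer in slow fibre RNA than the other 4. The summed slow sarcomere level was 1908 CPM in gastrocnemius of A and 1889 CPM in D, against 6532 to 9315 CPM in B, C, E and F. Of the 21 slow sarcomere genes, 10 had their lowest gastrocnemius value in A and 9 in D, and 11 had their highest in E and 8 in B. On the soleus side C had the highest value for 18 of 21 genes and A the lowest for 13. The median log2 difference of the slow list within a collection was 6.44 in A and 5.45 in D, and 3.19 to 4.06 in the other 4. With collections B, C, E and F only, an alternative added after seeing the data, 6929 genes passed.

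**Figure D3:**
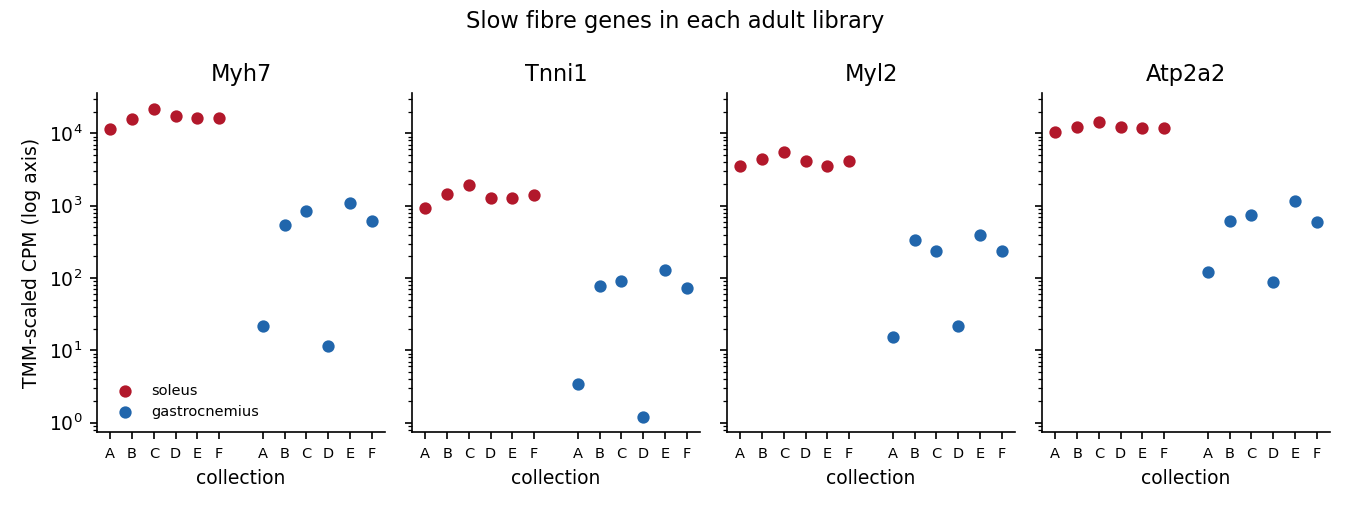
TMM-scaled CPM, on a log axis, of Myh7 (slow myosin heavy chain), Tnni1 (slow troponin I), Myl2 (slow regulatory light chain) and Atp2a2 (slow calcium pump) in each library, by collection, soleus left and gastrocnemius right. Gastrocnemius of A and D lies below the other 4 for each gene, and every soleus library lies above every gastrocnemius library.

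Promoters are printed for 3 of the genes with the largest differences, a slow gene, a fast gene and myostatin (Mstn), since members of the slow and fast lists moved together. Each is the 250 bases before the annotated start, on the plus strand of GRCm38.p6 (RefSeq). Capitals mark CATTCC, known as the MCAT motif, and TATAAA, the TATA box letters, on either strand.
Tnnc1, chr14:31208062-31208311: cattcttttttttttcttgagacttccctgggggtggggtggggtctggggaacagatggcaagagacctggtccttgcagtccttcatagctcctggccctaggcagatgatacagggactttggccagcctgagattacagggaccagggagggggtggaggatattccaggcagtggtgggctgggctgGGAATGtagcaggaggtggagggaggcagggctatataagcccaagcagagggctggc
Myh4, chr11:67237562-67237811: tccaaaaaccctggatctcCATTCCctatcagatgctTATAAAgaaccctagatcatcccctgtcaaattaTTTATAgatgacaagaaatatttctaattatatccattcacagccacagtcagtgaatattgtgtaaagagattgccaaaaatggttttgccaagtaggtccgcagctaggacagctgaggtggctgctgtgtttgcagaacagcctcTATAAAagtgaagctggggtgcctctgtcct
Mstn, chr1:53061390-53061639: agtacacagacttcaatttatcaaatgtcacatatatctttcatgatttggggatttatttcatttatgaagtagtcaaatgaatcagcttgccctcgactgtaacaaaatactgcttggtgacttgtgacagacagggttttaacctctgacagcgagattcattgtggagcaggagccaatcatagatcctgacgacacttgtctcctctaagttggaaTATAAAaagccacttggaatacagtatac
The Tnnc1 window holds CATTCC letters 58 bases before the start, on the minus strand. The Myh4 window holds CATTCC 231 bases before the start and TATAAA letters at 213, 179 and 31 bases before it, and the Mstn window holds TATAAA 29 bases before the start. Over the 27025 genes with such a window, CATTCC was in 14.4% and TATAAA in 14.3%. CATTCC was in 5 of 20 slow sarcomere windows (25%) and 5 of 13 fast sarcomere windows (38.5%), and TATAAA in 3 of 20 and 3 of 13. CANNTG, the E box bound by MyoD-type factors, was in 69.3% of all windows, 19 of 20 slow and 11 of 13 fast ones. The MEF2 site letters (CTA, any 4 bases, TAG) were in 3.7% of all windows, 2 of 20 slow and none of 13 fast ones. Both strands were searched, motifs may overlap each other, and a match is only a description of the letters.

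Beyond the sarcomere, the 15 largest rises in soleus included Sln, Sim1, Adamts8 and Sbk3. Sln encodes sarcolipin, a small inhibitor of the calcium pump. It had 24.4, 30.0 and 38.5 CPM in soleus and 0, 0.21 and 0.666 CPM in gastrocnemius, the largest rise of the 15 (6.67 ± 0.33, adjusted p = 1.3e-07). Sim1, a transcription factor of the bHLH-PAS family, had 8.92, 11.5 and 15.1 CPM in soleus, while 4 of the 6 gastrocnemius libraries had no read and the highest had 1.37 CPM (5.48 ± 0.68). Adamts8, a secreted protease, had 15.9, 32.9 and 45.3 CPM in soleus and 0.381, 0.866 and 2.15 CPM in gastrocnemius (4.79 ± 0.25). Sbk3, a kinase-like gene, had medians of 11.4 CPM in soleus and 0.222 CPM in gastrocnemius.

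Among the 15 largest falls, Actn3, the fast alpha-actinin of the Z disc, had 4.32, 7.11 and 45.9 CPM in soleus and 7625, 10058 and 13514 CPM in gastrocnemius (-9.91 ± 0.50). Pvalb, parvalbumin, a calcium buffer of fast fibres, had 5.88, 36 and 97.1 CPM in soleus and 6358, 7865 and 9854 CPM in gastrocnemius (-7.94). Mss51, a gene named for a yeast mitochondrial factor, had 1.59, 3.15 and 4.73 CPM in soleus and 396.4, 1125 and 1652 CPM in gastrocnemius (-8.49 ± 0.26). No soleus library came near a gastrocnemius one for any of these.

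Mstn encodes myostatin, a secreted brake on muscle growth, and had 0.122, 1.13 and 1.88 CPM in soleus and 99.0, 144.8 and 202.8 CPM in gastrocnemius (-7.02 ± 0.24, adjusted p = 1.21e-08). Six2, a homeodomain factor, had 0.209, 0.427 and 0.591 CPM in soleus and 21.3, 48.5 and 60.6 CPM in gastrocnemius (-6.67). Cell surface and channel genes were in the same set: Cdh4, a cadherin (-6.65), Cntnap2, a neurexin family member (-7.48), and Kcnab1, a potassium channel beta subunit (-6.49). Cimap1d (-8.24), Trnp1 (-5.96), Gm4841 (-9.07) and 1700001O22Rik (-5.88) were read at a median of under 0.2 CPM in soleus.

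Ighm, the constant region of the IgM heavy chain, also fell in soleus, to 0.803, 2.39 and 2.77 CPM, against 120.2, 184.1 and 311.5 CPM in gastrocnemius (-6.44 ± 0.33). B-cell genes were examined after this value was seen, and none came near the same ratio. Summed over 6 libraries, Cd79a had 49 reads in soleus and 18 in gastrocnemius, Ms4a1 had 19 and 11, and the light chain gene Igkc had 63 in soleus and 20 in gastrocnemius. Jchain had 19 reads in soleus and 34 in gastrocnemius, and Ighd had 44 in soleus and 59 in gastrocnemius. Reads of Ighm numbered 315 in soleus and 22669 in gastrocnemius.

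The machinery that couples the nerve impulse to calcium release was lower in soleus. Of 23 genes for excitation-contraction coupling, 19 fell in soleus and 2 rose, with a median of -0.78 (16 fell and 4 rose with library totals alone). Camk2a, a calmodulin-dependent kinase, had 71.4, 85.5 and 106.8 CPM in soleus and 626.4, 746.1 and 918.7 CPM in gastrocnemius (-3.11 ± 0.12). The calcium channel gamma subunit Cacng1 fell by 2.43, the calmodulin gene Calm3 fell by 2.10, and Jph1, which tethers the membranes of the triad, fell by 1.63. Ryr1, the calcium release channel, fell by 1.14, and Cacna1s, its voltage sensor, fell by 0.75; these 2 were named after their values were seen. The 2 that rose were Mcu, the mitochondrial calcium uniporter (0.60), and S100a1, a calcium-binding modulator (0.92).

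The calcium pumps exchanged isoforms. Atp2a2, the slow and cardiac pump, had 10494, 12070 and 14310 CPM in soleus and 88.6, 606.5 and 1175 CPM in gastrocnemius (4.91 ± 0.51), and the fast pump Atp2a1 fell by 2.72 in soleus. Of 6 small peptide regulators listed, 3 were found in the count table by symbol, and they split: Sln and Pln, phospholamban, rose in soleus, and Mrln, myoregulin, fell. Pln had 10.3, 30.0 and 72.7 CPM in soleus and 1.96, 4.0 and 7.26 CPM in gastrocnemius. Mrln had 6.29, 7.05 and 7.59 CPM in soleus and 33.2, 40.5 and 53.2 CPM in gastrocnemius (-2.56 ± 0.09), with little spread in either muscle.

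Ion channels and pumps of the fibre membrane went both ways, with 7 higher, 10 lower and 2 that did not pass of 19 (9 higher and 9 lower with library totals alone). Atp1b2, the gene of a sodium pump beta subunit, had 15.9, 19.5 and 21.4 CPM in soleus and 372.7, 436.4 and 582.4 CPM in gastrocnemius (-4.55 ± 0.10, adjusted p = 1.08e-09). The Kv3 potassium channel gene Kcnc4 fell by 4.39. The chloride channel Clcn1, which sets resting conductance, fell by 1.34, and the sodium channel Scn4a, which carries the action potential, fell by 1.03. Kcnma1, a potassium channel, rose by 1.15.

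Fuel genes separated glycolysis from fat use. Of 38 genes for glycolysis and glycogen, 26 fell in soleus and 9 rose (median -1.52). The glycerol phosphate shuttle, which passes cytosolic electrons to mitochondria, fell in both of its enzymes. Gpd1 had 37.6, 43.0 and 45.6 CPM in soleus and 766.7, 936.5 and 1108 CPM in gastrocnemius (-4.45 ± 0.11). Gpd2 had 17.7, 19 and 26 CPM in soleus and 229.4, 312.2 and 364.2 CPM in gastrocnemius (-3.87 ± 0.09). Pygm, muscle glycogen phosphorylase, fell by 2.65, and the glycogen branching enzyme gene Gbe1 rose by 1.22.

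Lactate handling exchanged both its transporter and its enzyme. Slc16a3 (MCT4, the exporter of glycolytic fibres) had 4.1, 8.1 and 9.04 CPM in soleus and 172.2, 252.7 and 352.8 CPM in gastrocnemius (-5.16 ± 0.16). Slc16a1 (MCT1, linked to uptake) had 229.4, 241.2 and 332.3 CPM in soleus and 51.2, 73.5 and 88.1 CPM in gastrocnemius (1.89). Ldha fell by 2.55 and Ldhb rose by 2.90 ± 0.47, and Ldhb held 60.3% ± 1.91 of both in soleus and 4.63% ± 3.37 in gastrocnemius (SD, n = 6 each).

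Of 41 genes for fatty acid uptake and oxidation, 38 rose in soleus and 1 fell (median 0.97). Cd36, the fatty acid transporter, had 787.6, 845.7 and 1191 CPM in soleus and 111.1, 223.4 and 329.2 CPM in gastrocnemius (2.20). The thioesterase Acot2 rose by 2.19, the acyl-CoA ligase Acsf2 by 2.04, and the beta-oxidation enzymes Hadhb and Acadm by 1.45 and 1.26. The gene that fell was Ucp3, an uncoupling protein, with 8.47, 48.8 and 107.6 CPM in soleus and 111.5, 158 and 239.1 CPM in gastrocnemius (-1.79). Cpt1b, at low means of 2.79 CPM in soleus and 1.96 CPM in gastrocnemius, and Acacb did not pass. With library totals alone 40 of the 41 rose, Cpt1b by 0.88 (edgeR, adjusted p = 0.00844).

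Respiratory chain genes mostly did not pass. Of 50 nuclear genes for oxidative phosphorylation, 7 were higher, 5 lower and 38 did not pass, with a median of 0.05, and of 28 for the tricarboxylic acid cycle, 8 were higher, 6 lower and 14 did not pass (median 0.04). This reading rests on the scaling: with library totals alone the first list had 43 higher and none lower, and the second 19 higher and 5 lower. With TMM scaling, the shares of cycle genes that were higher and lower were near the 30.9% and 27.4% of all genes. Cox8a (0.97) and Ndufb3 (0.83) were higher and Ndufs3 (-0.42, not passing with library totals) was lower. Idh2, the mitochondrial NADP isocitrate dehydrogenase, had 1270, 1533 and 1761 CPM in soleus and 86.6, 332.2 and 545.5 CPM in gastrocnemius (2.62), while Idh3a, the NAD enzyme of the cycle, fell by 1.17. Mdh1 rose by 1.27 and the malic enzyme Me1 fell by 2.13. None of 13 protein genes of the mitochondrial genome passed with edgeR (lowest adjusted p = 0.0548, 1 at an unadjusted p under 0.05), DESeq2 called 1 and limma-voom none. Their summed level was 61899 to 133538 CPM in soleus, highest in A and F, and 68603 to 94293 CPM in gastrocnemius.

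Energy and oxygen stores were split, with 9 of 21 genes higher and 8 lower. Mb, myoglobin, had 5722, 6419 and 7393 CPM in soleus and 488.1, 1924 and 3188 CPM in gastrocnemius (2.16). Car3, a carbonic anhydrase of slow fibres, rose by 2.32. Ckm, cytosolic creatine kinase, fell by 2.13 and Ckmt2, the mitochondrial form, rose by 1.02. Prkag3, a regulatory subunit of AMP-activated kinase, had 4.86, 9.47 and 15.4 CPM in soleus and 248.7, 348.5 and 446.9 CPM in gastrocnemius (-5.15 ± 0.26). The AMP deaminase gene Ampd3 rose by 2.34.

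**Figure D4:**
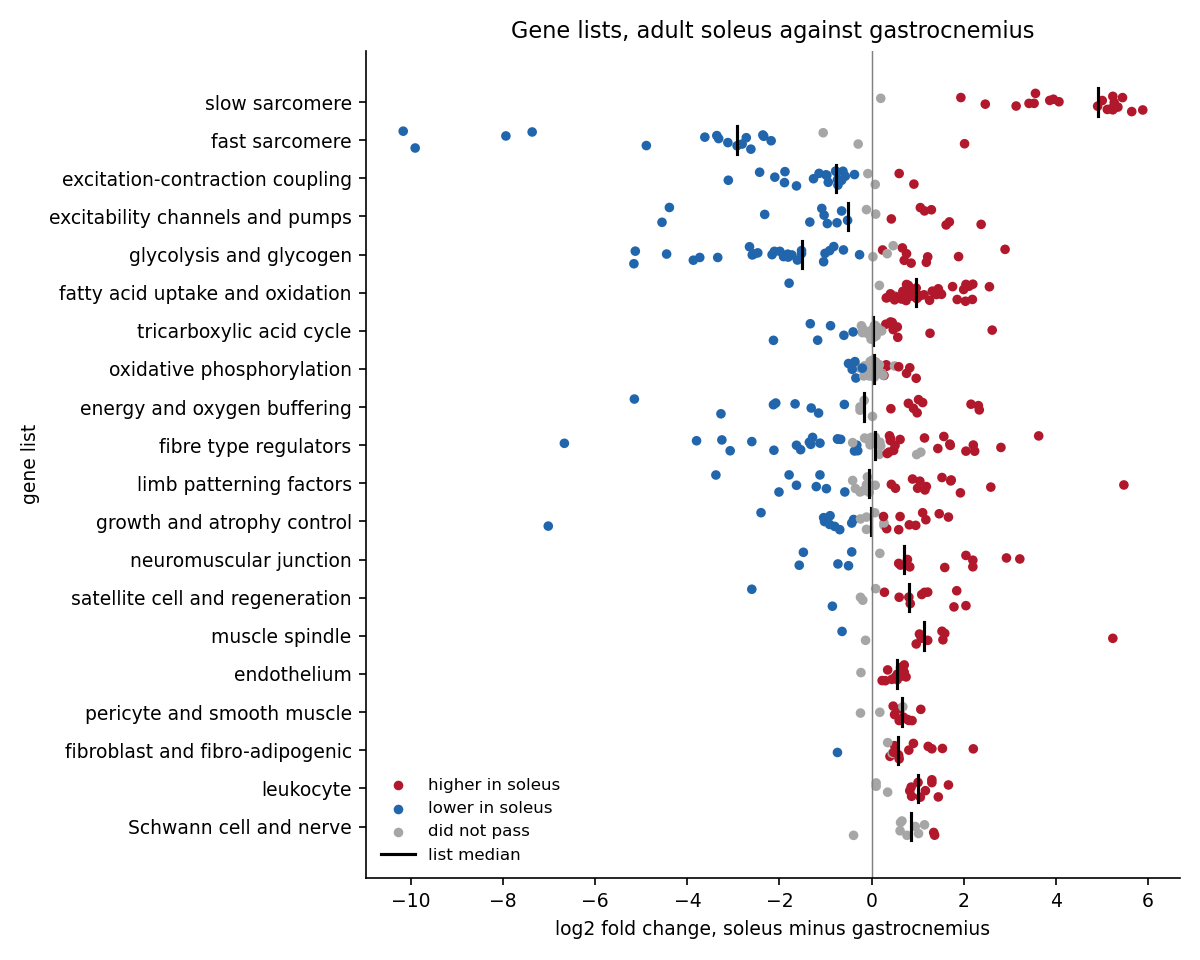
Log2 fold change, soleus minus gastrocnemius, of each tested member of 20 gene lists, with red for genes that passed and were higher in soleus, blue for lower, grey for those that did not pass, and a black bar at the list median. The slow sarcomere lies at a median of 4.91 and the fast sarcomere at -2.92, and oxidative phosphorylation lies around 0.05.

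Of 47 known or proposed regulators of fibre type, 18 were higher in soleus, 18 lower and 11 did not pass (28 higher and 14 lower with library totals alone). Prox1, a homeodomain factor tied to slow fibres, had 26.6, 32.3 and 51.7 CPM in soleus and 1.53, 3.0 and 3.79 CPM in gastrocnemius (3.63 ± 0.18). Rcan1 and Rcan2, regulators and targets of the phosphatase calcineurin, rose by 1.70 and 2.05. Genes of calcineurin itself on the list fell, Ppp3ca by 1.28, Ppp3cb by 1.63 and Ppp3r1 by 1.12, all named after their values were seen. The nuclear receptor genes Esrrg and Ppara rose by 2.21 and 1.57, and the cofactor gene Vgll2 by 2.24. Hdac9, a histone deacetylase, rose as well, with 22.9 to 33.2 CPM in soleus and 6.27 to 15.9 CPM in gastrocnemius.

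On the fast side, Maf had 16.7, 19.1 and 23.6 CPM in soleus and 150.4, 185.6 and 254.1 CPM in gastrocnemius (-3.25 ± 0.09, adjusted p = 4.29e-09), and its relative Mafa fell by 3.80. Both belong to the large Maf factors, which are known to drive IIb myosin in mice. Eya4, a transcriptional cofactor, fell by 3.07. Sox6, a repressor of slow genes, had 47.9, 59.0 and 68.9 CPM in soleus and 216.2, 253.2 and 291.9 CPM in gastrocnemius (-2.12). Myod1 fell by 2.60 and Tbx15, a T-box factor of glycolytic fibres, by 1.54. Ppargc1a, the coactivator of mitochondrial growth, had 1275 CPM in soleus of A, 61.3 to 306.7 CPM in the other soleus libraries and 62.7 to 91.0 CPM in gastrocnemius. It did not pass (1.07 ± 0.46, adjusted p = 0.0658), but it passed in 8 of the alternatives. Without collection A the value was 0.60 (adjusted p = 0.0451), without B it was 1.36 (adjusted p = 0.0374), without the pairing it was 2.10 (adjusted p = 0.0113) and with limma-voom it was 1.21 (adjusted p = 0.0335). It also passed with 23 adult libraries, upper-quartile scaling, library totals or no filter on low counts.

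Patterning factors of the limb differed in both directions. Of 30 tested, 13 were higher in soleus, 8 lower and 9 did not pass (13 and 6 with library totals alone). Over all genes 30.9% were higher and 27.4% lower, so the share that fell was near that of all genes. Tbx3 had 31.1, 41.8 and 47.7 CPM in soleus and 7.03, 10.3 and 17.5 CPM in gastrocnemius (1.93 ± 0.16). Emx2 rose by 2.59 and the hindlimb factor Tbx4 by 0.89. Sim2 rose by 1.00 but did not pass when fitted with 23 or 24 adult libraries (adjusted p = 0.12 and 0.197). The genes that fell included members of the Hox clusters, which mark position along the limb. Hoxd9 had 4.78, 5.1 and 7.9 CPM in soleus and 19, 23.6 and 25.8 CPM in gastrocnemius (-2.01), Hoxd8 fell by 1.79 and Hoxc10 by 1.12. Lbx1, a factor of migrating muscle precursors, fell by 0.98.

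Growth control was evenly split, with 10 of 26 genes higher and 10 lower (14 and 7 with library totals alone). Mstn and its close relative Gdf11 fell in soleus, Gdf11 at a low level (1.24 CPM in soleus and 5.81 CPM in gastrocnemius, medians), while Fst, follistatin, which binds myostatin, had 8.45, 14.8 and 20.2 CPM in soleus and 3.84, 4.22 and 6.33 CPM in gastrocnemius (1.67 ± 0.12). The related Fstl1 rose by 1.18. Inhba, which encodes a subunit of activin, another ligand that follistatin binds, also rose, at a low level (1.47 ± 0.39, adjusted p = 0.00875).

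Of 16 genes of the neuromuscular junction, 10 were higher in soleus and 5 lower (11 and 3 with library totals alone), with a median of 0.70. The acetylcholine receptor subunits differed in direction. Chrna1 had 102.8, 110.2 and 123.2 CPM in soleus and 13, 27 and 30.3 CPM in gastrocnemius (2.20 ± 0.14). The delta subunit Chrnd and the fetal gamma subunit Chrng rose by 2.93 and 3.22, Chrng at a median of 2.32 CPM in soleus and 0.273 CPM in gastrocnemius. The adult epsilon subunit Chrne had 3.49, 5.07 and 6.65 CPM in soleus and 11.3, 15.5 and 19.8 CPM in gastrocnemius (-1.57), and Chrnb1 fell by 0.73. Ache, acetylcholinesterase, fell by 1.48 and its collagen tail gene Colq rose by 2.20. Ncam1, an adhesion molecule of junctions, nerves and satellite cells, rose by 2.05.

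Satellite cells are the stem cells of muscle. Of 15 tested genes on their list, 10 were higher in soleus and 2 lower. Pax7, their defining factor, had 4.18, 6.77 and 8.37 CPM in soleus and 1.69, 2.86 and 4.34 CPM in gastrocnemius (1.22 ± 0.20), and the groups overlapped slightly. Myf5 rose by 1.79 and Myog by 1.15. The 2 that fell were Myod1 and Myf6, and mature fibres also make Myf6. Of 10 genes of the muscle spindle, the stretch receptor, 8 were higher and 1, Etv1, was lower (-0.64, not passing with library totals, adjusted p = 0.149). Vcan rose by 1.22, the mechanosensory channel gene Piezo2 by 1.53 and Erbb3 by 1.59. Myh7b is on the list as well and is also a slow sarcomere gene.

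Most of the markers of other cell types that passed were higher in soleus. Of 14 endothelial genes, 13 were higher and none was lower (median 0.56), with a summed level of 745.7 to 886.1 CPM in soleus and 491.7 to 703 CPM in gastrocnemius. Pecam1 rose by 0.63 and Kdr by 0.56. Angpt1, a vessel-stabilising ligand, had 90.9, 128.4 and 195.3 CPM in soleus and 11.7, 22.5 and 34.7 CPM in gastrocnemius (2.57 ± 0.20). Nos1, the neuronal nitric oxide synthase that muscle fibres make, fell by 3.42 and was the only 1 of 14 vessel growth genes to fall. Of 12 pericyte and smooth muscle genes 9 rose, Cspg4 by 1.07 and Rgs5 by 0.63, and Des, which muscle fibres also make, did not pass and held most of the list's summed level. Without Des the other 11 summed to 468.7 to 624.6 CPM in soleus and 284.4 to 428.9 CPM in gastrocnemius.

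Of 16 fibroblast genes, 12 were higher and 1 lower (summed level 3848 to 4718 CPM in soleus and 1936 to 3844 CPM in gastrocnemius). Fn1, fibronectin, rose by 1.54, Cd34 by 0.81, and Smoc2 fell by 0.74 (not passing with library totals, adjusted p = 0.059). Of 13 leukocyte genes, 10 were higher and none lower (161.8 to 241.2 CPM in soleus and 74.3 to 156.9 CPM in gastrocnemius). They included the macrophage genes Lyve1 (1.67), Cd68 (1.45) and Mrc1 (1.31). Of 24 basement membrane and costamere genes, 16 were higher and 2 lower (median 0.33). Of 11 tendon genes 3 rose, among them Scx (0.99), a share near the 30.9% of all genes. Their summed levels overlapped, 122.1 to 641.1 CPM in soleus and 195.8 to 544.3 CPM in gastrocnemius, with D lowest in soleus and A highest in gastrocnemius. The count was 8 without collection D, 1 without F, 2 without B or C, 6 with library totals and 10 with B, C, E and F only. Of 9 adipocyte genes 3 rose, again a share near the 30.9% of all genes. That count ran from 2 with 23 adult libraries to 8 with library totals. The summed level of the list was mostly Car3, which muscle fibres also make. Adipoq did not pass (1.41, adjusted p = 0.0808), though it did without collection F (1.90, adjusted p = 0.0447), with library totals or with no filter on low counts. Both erythroid genes tested rose, Hba-a1 by 1.09. The part of these cell types in the other differences was not tested.

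Nerve RNA set 1 library apart. The summed level of the 10 Schwann cell and nerve genes was 542 CPM in soleus of A, 118.5 to 142.6 CPM in the other soleus libraries and 29.8 to 98.3 CPM in gastrocnemius. Of the 10 genes, Pmp22 (1.37) and Mbp (1.35, adjusted p = 0.049) rose. Mbp did not pass with DESeq2 (adjusted p = 0.0698) or without collection B, C, D or E (adjusted p = 0.0616 to 0.0891). Over all genes, 7558 passed without collection A.

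Immediate early genes respond within minutes to stimulation or handling. Of 15, 8 were higher in soleus and 2 lower (13 and none with library totals alone), and none had groups that did not overlap. Fos had 18, 52.3 and 104.2 CPM in soleus and 4.29, 9.79 and 24.4 CPM in gastrocnemius (2.20 ± 0.37). Btg2 rose by 1.80 and Nr4a2 by 1.85, though without the pairing Nr4a2 did not pass (adjusted p = 0.131). Nr4a1 fell by 0.57. It did not pass without the pairing (adjusted p = 0.077) or with library totals alone (adjusted p = 0.182).

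Of 17 circadian clock genes, 4 were higher and 6 lower (8 higher and 3 lower with library totals alone, 2 and 3 without the pairing), a share of genes passing near the 58.3% of all genes. Bhlhe41 fell by 1.16, Tef by 0.80 and Dbp by 0.69, and Per1 rose by 0.48. Without the pairing, Per1 (adjusted p = 0.198) and Dbp (adjusted p = 0.124) did not pass, and Dbp also did not without collection E (adjusted p = 0.0511) or with library totals. Of 20 stress and protein folding genes, 9 were higher and 7 lower (11 and 3 with library totals alone). The small heat shock genes did not move as 1 group: Cryab had 1106, 1311 and 1725 CPM in soleus and 244.1, 356.2 and 574.4 CPM in gastrocnemius (1.82), Hspb6 rose by 1.80 and Hspb7 by 2.80, and Hspb8 fell by 0.89. Cat, catalase, rose by 1.83 and Gpx3, a secreted glutathione peroxidase, fell by 0.70.

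Several genes linked to embryonic or cardiac muscle also differed in the adults. Of 9 on the developmental list, 6 were higher and 2 lower, and Myom3, among the higher ones, is on the slow sarcomere list as well. Tnnt2, cardiac troponin T, rose by 2.60. Dsp, desmoplakin, rose by 4.48 at a low level (means of 4.11 CPM in soleus and 0.187 CPM in gastrocnemius). Actc1, cardiac actin, had 13.3, 20.9 and 22.9 CPM in soleus and 41.6, 93.7 and 213.8 CPM in gastrocnemius (-2.35), and Mybph fell by 4.45. The actin genes are near-identical, which makes the Actc1 count less certain.

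The shank difference was next set against the slow-to-fast difference of the thigh, vastus intermedius minus vastus lateralis, in the 23 adult libraries other than the one labelled vastus intermedius of collection B, which had the E18.5 level of Myh3. In that library the 20 most abundant genes took 17.6% of the counts, against 28.1% to 32.8% in the other 5 of that muscle. In the thigh pair itself 7609 of 14304 genes passed (53.2%). The difference of the 2 differences passed for 1425 of the 14304 genes (9.96%), 331 positive and 1094 negative, and for the other genes no difference between the pairs was shown. With all 24 libraries the count was 181. Leaving out collection B or F from every muscle gave 869 and 777.

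For most slow sarcomere genes the log2 fold change was larger in the thigh. Of 21, 14 had a negative contrast, 1 a positive one and 6, Tpm3 and Atp2a2 among them, none that passed. The median log2 fold changes were 4.91 (shank) and 8.93 (thigh). Adult shank log2 fold changes set beside thigh or E18.5 values, here and below, are those of the fit to adult shank libraries alone. Subtracting the thigh or E18.5 value from them therefore need not give the contrast. Fitted with the 23 adult libraries, the shank median of the slow sarcomere list was 4.47. Myh7 averaged 4331 ± 2454 CPM in vastus intermedius and 1.24 ± 2.73 CPM in vastus lateralis (contrast -6.87 ± 1.51, adjusted p = 0.00562). The contrasts of Myl3, Myl2 and Myoz2 were -7.90, -7.24 and -6.88. These genes averaged 0.258, 0.372 and 0.305 CPM in vastus lateralis, near 0, which makes the size of such contrasts less certain. By level, Myh7 differed more in the shank, with means of 16593 CPM in soleus and 522.6 CPM in gastrocnemius. Fast genes fell further in the shank. Myh4 averaged 12657 ± 14617 CPM in vastus intermedius and 103707 ± 14356 CPM in vastus lateralis, so that the log2 fold change was -10.17 for the shank and -3.39 for the thigh (contrast -6.80 ± 0.79). Actn3 (-6.07) and Mstn (-3.0) did likewise. Of 19 fast sarcomere genes 15 had a negative contrast and none a positive one.

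Of the 30 genes with the largest shank difference, 19 had a contrast that passed, 8 of 15 higher and 11 of 15 lower genes. No difference between the pairs was shown for Sln (contrast 0.35 ± 1.01, adjusted p = 0.893), Sim1 (0.35), Adamts8 (-0.08), Tpm3, Atp2a2 or Six2, whose log2 fold changes were 6.67, 5.48, 4.79, 5.12, 4.91 and -6.67 in the shank and 6.33, 5.18, 4.91, 6.02, 5.90 and -5.73 in the thigh, in that order. Fst and Nnat went opposite ways. Fst rose in soleus by 1.67 and had a log2 fold change of -0.69 in the thigh (contrast 2.35 ± 0.29, adjusted p = 5.07e-05). Nnat, neuronatin, an imprinted gene, had 1.68 in the shank and -1.75 in the thigh (contrast 3.35, adjusted p = 0.0233), but the contrast did not pass with all 24 libraries or without collection A, B or D (adjusted p = 0.0547 to 0.116). Ripor2 had -0.70 in the shank and -2.97 in the thigh (contrast 2.27, not passing with all 24 libraries). Wnt16, a signalling ligand, averaged 7.95 ± 3.27 CPM in vastus intermedius with no read in any vastus lateralis library, and differed by 1.11 in the shank. Bdh1, a ketone body enzyme, rose by 2.00 in the shank and by 8.99 in the thigh.

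The mitochondrial lists parted the 2 pairs. For oxidative phosphorylation 40 of 50 genes had a negative contrast and none a positive one, with medians of 0.05 in the shank and 0.67 in the thigh. For the tricarboxylic acid cycle these were 20 of 28, 0.04 and 0.68, and for fatty acid use 15 of 41, 0.97 and 1.45. The contrasts were run with TMM scaling only, so their dependence on scaling was not tested. With library totals alone the shank medians of the first 2 lists were 0.43 and 0.42. None of 23 excitation-contraction coupling genes had a contrast that passed (edgeR).

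At E18.5 few genes passed between the same muscles of embryos. Of 15650 genes tested there, 165 (1.05%) passed, 100 higher and 65 lower in soleus. The adult difference minus the E18.5 difference passed for 7004 genes (44.8%), 3524 positive and 3480 negative. Of the 30 genes with the largest adult difference, 28 had such a contrast, and Sbk3 and Cimap1d did not pass (adjusted p = 0.1 and 0.171), though Sbk3 did without adult collection B (adjusted p = 0.0185). Of the slow sarcomere genes 20 of 21 had a positive contrast, with a median log2 fold change of 4.91 in adults and 0.64 at E18.5. Of 19 fast genes 16 had a negative one, with medians of -2.92 and -0.24. Glycolysis had medians of -1.52 in adults and -0.06 at E18.5, and fatty acid use 0.97 and 0.09. Embryonic letters do not link to the adult mice.

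Single genes took different routes. Sln was read about equally in both embryonic muscles, at 137.8 ± 41.2 CPM in soleus and 138.6 ± 36.1 CPM in gastrocnemius (contrast 6.64 ± 0.34, adjusted p = 7.13e-10). Mss51 averaged 10.6 ± 1.77 CPM in soleus and 11.2 ± 2.07 CPM in gastrocnemius at E18.5 (contrast -8.44). Cdh4 had a log2 fold change of 0.32 ± 0.19 at E18.5 that did not pass (contrast -7.01). Myh4 averaged 60.2 ± 39.4 CPM in E18.5 soleus and 82.8 ± 21.3 CPM in E18.5 gastrocnemius (contrast -9.50). Gm4841 (-10.26), Actn3 (-9.03), Six2 (-5.99) and Mstn (-5.36) had contrasts of the same sign.

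Myh7 averaged 1183 ± 687.7 CPM in E18.5 soleus and 452.4 ± 123 CPM in E18.5 gastrocnemius, a difference that did not pass at that stage (1.25, adjusted p = 0.548, contrast 4.60). The contrasts of Tnni1, Atp2a2 and Adamts8 were 4.77, 4.58 and 4.31. Casr, the calcium-sensing receptor, had a log2 fold change of -4.98 in adults and 1.90 ± 0.43 at E18.5 (adjusted p = 0.0478), the reverse direction (contrast -6.94). Its E18.5 levels were low, at 1.02 ± 0.621 CPM in soleus and 0.244 ± 0.0528 CPM in gastrocnemius. Of the 8 genes with the largest positive contrast, Chrna9, Vwc2, Dcx, Gipr and Myo16 did not pass the low-count filter in the adult shank libraries.

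**Figure D5:**
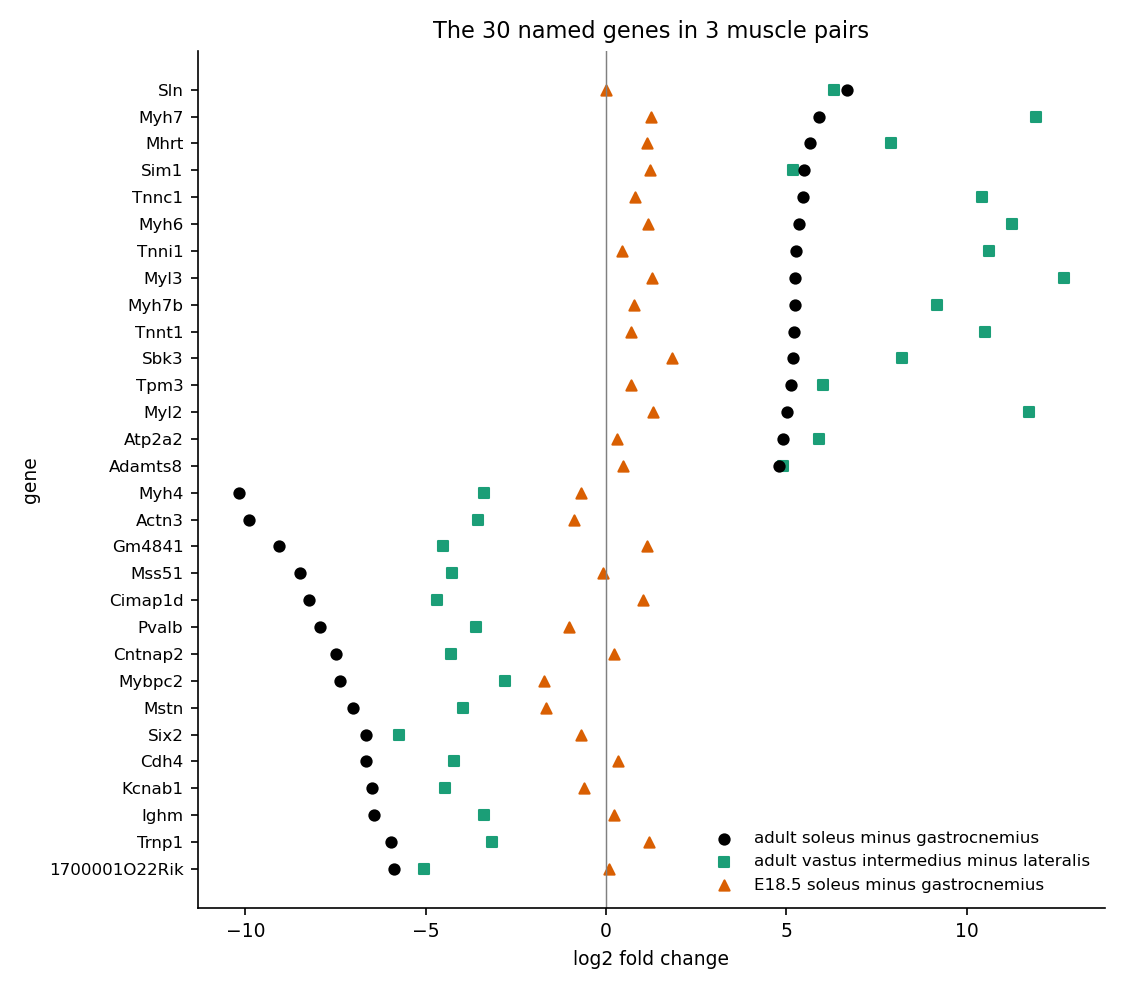
Log2 fold change of the 30 genes with the largest adult shank difference in 3 pairs: adult soleus minus gastrocnemius (black circles), adult vastus intermedius minus vastus lateralis (green squares, without the library labelled vastus intermedius of collection B) and E18.5 soleus minus gastrocnemius (orange triangles). Slow sarcomere genes lie farther out in the thigh, although the contrast of Mhrt, Tpm3 and Atp2a2 did not pass, fast genes lie farther out in the shank, and E18.5 values lie between -1.71 and 1.84.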

How the data were processed

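The authors deposited raw read counts per gene for 48 libraries. They name Subread 2.0.6 (featureCounts), STAR 2.7.11, Trimmomatic 0.39.0, FastQC 0.11.5, DESeq2 1.44.0 and build mm10 in the submitters' processing notes; gene annotation and strandedness are not given in the sources. Per the labels' protocols, RNA with an integrity number above 7 went into random-primed mRNA libraries.

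The table held 27179 genes. Symbols came from comparison tables in which the authors deposited log2 fold changes, used only for their gene names (18780 genes) and from RefSeq GRCm38.p6 (6501), and 1898 genes had none. Counts were tested in R 4.3.3 with edgeR 4.0.16 (TMM, filterByExpr, quasi-likelihood F test, Benjamini-Hochberg adjustment), with the collection as a block. Collections come from the date tags of the columns, since the labels say that all muscles came from the same mice. Deviations from the muscle means correlated by 0.107 to 0.288 within a collection, above every other pairing for all 6. Adult D and E share a date, which leaves 5 dates. Alternatives were limma-voom (limma 3.58.1), DESeq2 1.42.0 and those named in the closing section. On simulated data 97% of 2-fold and 100% of 4-fold changes were recovered among 12928 genes tested, with 4.9% false among the calls. The simulation changed only 200 genes, as many up as down, so it cannot speak to scaling where most genes differ. Standard errors are the log2 fold change over the root of its F statistic. A count of 0 allows up to 3 counts, for counting error only. No replicate libraries agreed within sampling noise (lowest chi-square per degree of freedom 15.0).

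Named genes were the 15 with the largest change in each direction (passing, same way in 6 collections, at least 5 CPM in the higher muscle), up to 12 members of each of 30 gene lists in order of p, those that did not pass, and for contrasts the 8 largest per direction. Of 630 list entries 593 were tested. Genes, lists and tests were chosen with earlier results of these data known, and no list was given a set test. Some genes are not reported here.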

Additional observations from a re-analysis of the deposited data

Results flagged for a closer look

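For each named gene and share, the highest or lowest of 6 libraries was compared with the rest by Dixon's gap criterion, 372 groups in all. It marked 25, and chance alone marks about 1 in 20 groups.

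Soleus of collection A was highest for Ppargc1a (1275 CPM, the others 61.3 to 306.7), Pmp22 (178.9, others 58.2 to 68.2), Mbp (110.6, others 18.6 to 27) and Nos1 (11.5, others 5.65 to 7.77). Pmp22 and Mbp are myelin genes. Soleus of C was highest for Casq2 (418.2 CPM), Ampd3 (105), Prox1 (51.7), and the Myl2 and Atp2a2 shares (87.3% and 71.2%). Soleus of D was highest for Hba-a1 (107.4 CPM) and lowest for the Actn2 share (99.1%). Soleus of E was lowest for Myh1 (700 CPM, others 2408 to 3372) and Ndufb3 (108.4).

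Gastrocnemius of A was highest for Kcnc4 (122.4 CPM), Gdf11 (15.2) and Fst (6.33) and lowest for Ncam1 (6.22). Gastrocnemius of E was highest for Sim1 (1.37) and Nr4a2 (42.5) and lowest for Tnni2 (6028), Tbx15 (257.2) and Lbx1 (39.7). Trnp1 was highest in D (29.8), Myf5 in B (2.20) and Mir133b in F (2.82).

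Differences between pairs of muscles passed the edgeR contrast for the following named genes. Shank minus thigh was positive for Nnat (3.35), Fst (2.35) and Ripor2 (2.27), and negative for Wnt16 (-9.87, a fitted value set by the prior count, since vastus lateralis had no read), Myl3 (-7.90), Myl2 (-7.24), Bdh1 (-7.11), Myoz2 (-6.88), Myh7 (-6.87), Myh4 (-6.80), Actn3 (-6.07) and Mstn (-3.0). Adult minus E18.5 was positive for Sln (6.64), Tnni1 (4.77), Myh7 (4.60), Atp2a2 (4.58) and Adamts8 (4.31), and negative for Gm4841 (-10.26), Myh4 (-9.50), Actn3 (-9.03), Mss51 (-8.44), Cdh4 (-7.01), Casr (-6.94), Six2 (-5.99) and Mstn (-5.36).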

How the results depend on the processing

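Every count of called genes stayed within 1.5 times of the reported one under the alternatives tried, except where named here. Library totals alone gave 7590 higher and 1587 lower genes. The thigh contrast gave 181 with all 24 adult libraries and 777 to 1404 when 1 collection was left out. Leaving out 1 collection gave 7189 to 7558 called genes in the shank and 6524 to 6694 for the E18.5 contrast. Without the replicate block 7767 genes passed, 4076 higher and 3691 lower, and in the contrasts 1159 and 6418. DESeq2 called 7785 and limma-voom 7964. Of 166 named genes, 146 kept their call and direction in all 16 alternatives, and no called gene was reversed. The others, such as Ppargc1a, Mbp, Dbp and Nr4a1, crossed the threshold in at least 1. Of 960 list counts under alternatives, 53 moved by over 1.5 times, 17 of them with library totals and 11 with 24 adult libraries. Shares moved by less than 1 SD without any collection and with B, C, E and F only. Per base of gene length all kept their direction and call, but some soleus shares moved by over 1 SD. Those of Tnni1, Atp2a2, Casq2, Ldhb and Slc16a1 moved to 38.7%, 52.5%, 33.5%, 69.4% and 95.4%. With 5 animals the smallest exact p is 0.0625. Counts per coding residue were not run. Depth limits the genes near 0, where 3 counts equal 0.104 to 0.156 CPM before scaling.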

Other observations

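Genes in another stretch of chromosome 11, from Dynll2 at chr11:87979525-88003817 to Trim25 at chr11:88999403-89020294 (GRCm38.p6), apart from the myosin cluster, differed between collections rather than muscles. This was found after the values were seen, and the ends given are those of the genes examined. Dynll2, a dynein light chain gene, had 0.365 to 1.42 CPM in the 12 adult libraries of collections A, C and F and 33.3 to 66.2 CPM in 11 of B, D and E, in all 4 muscles. Mrps23, a mitochondrial ribosome gene, had 0 to 0.285 CPM in A, C and F and 6.23 to 15.6 CPM in B, D and E, and Akap1, a mitochondrial anchoring protein gene, had 0.914 to 5.4 CPM and 22 to 64.7 CPM in the same order. Cuedc1, which lies between Dynll2 and Mrps23, overlapped, with 0.121 to 27.6 CPM in A, C and F and 20.3 to 56.4 CPM in B, D and E. The library labelled vastus intermedius of B had 0.148, 0 and 1.04 CPM of Dynll2, Mrps23 and Akap1, unlike the other libraries of B. Its Trim25, at 5.48 CPM, lay within the range of B, D and E, and also within that of E18.5 collections B to E (0.229 to 6.59 CPM). Its Msi2, another gene of the stretch, had 24.7 CPM, within the range of A, C and F (21.1 to 32.2 CPM) and below that of B, D and E (44.8 to 75.6 CPM). Its Cuedc1 (10.4 CPM) and Scpep1 (2.96 CPM) also lay below the ranges of B, D and E. At E18.5, Dynll2 had 0.0444 to 0.805 CPM in collections B to E and 20.2 to 27.1 CPM in A and F. Whether all mice shared 1 genetic background, as the single strain label has it, was not tested.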
